A study of Homo sapiens with 21 samples.

Results

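Secreted and surface proteins of epithelial defense were followed at the RNA level through PC-9 cells with high and low EGFR: LCN2, C3, SLPI, S100A8, S100A9, PI3, CFB, SAA1, WFDC2 and PIGR. These 10 genes were chosen by name, as airway defense, acute phase and complement genes, out of the 20111 gene symbols in the data, and each symbol was found once. The choice was made with earlier results of these data known. Counts of called genes among them are therefore not those of a list chosen blind. PC-9 is an established lung adenocarcinoma line that carries an activating in-frame deletion in EGFR, and every library came from it. Bulk polyadenylated RNA was sequenced in 21 libraries that fall into 7 groups of 3 replicates. In the first experiment, parental cells and EGFR-low and EGFR-high cells were harvested untreated 24 h after seeding. In the second, EGFR-low and EGFR-high cells were kept for 72 h in DMSO or in 1 µM vorinostat (SAHA), an inhibitor of histone deacetylases, and no parental cells were treated. EGFR-low and EGFR-high cells are the dimmest and the brightest tail of EGFR antibody staining, taken through 6 rounds of sorting. They are thus sorted populations of 1 line and not clones, and all 7 groups share the EGFR deletion, although the labels write its last residue differently from library to library.

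Airway and other mucosal epithelia release antimicrobial and antiprotease proteins onto their surface. Lipocalin-2 (LCN2) binds bacterial siderophores and so withholds iron, and S100A8 and S100A9 form calprotectin, which withholds zinc and manganese. SLPI, elafin (PI3) and WFDC2 share the small WAP fold, and SLPI and elafin inhibit neutrophil elastase. C3 is the central component of complement, factor B (CFB) supplies the protease of its alternative pathway, and both are made by epithelium as well as by liver. Serum amyloid A1 (SAA1) is an acute phase protein, and PIGR carries polymeric immunoglobulins across epithelial cells. NF-kB, C/EBP and STAT3 factors are textbook regulators of many of these genes.

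The promoter windows below are shown for 4 genes called lower together in vorinostat-treated EGFR-low cells and for CFB, which was not. The windows came from a RefSeq table on GRCh38.p14, run from 250 bases before the transcription start to 50 bases after it, and were found for 6 of the 10 genes (LCN2, S100A8, S100A9, CFB, WFDC2 and PIGR). Capitals mark every match, on either strand, to the TATA box TATAAA, the C/EBP motif TTNNGNAA, the AP-1 motif TGANTCA, the STAT motif TTCNNNGAA and the NF-kB consensus. Of the 35116 windows in the table, 11.5% held the TATA box letters, 36.8% the C/EBP, 7.71% the AP-1, 7.66% the STAT and 20.8% the NF-kB letters. S100A8 has 3 start sites in the table, of which the middle one is printed.

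LCN2, chr9:128149203-128149502, plus strand: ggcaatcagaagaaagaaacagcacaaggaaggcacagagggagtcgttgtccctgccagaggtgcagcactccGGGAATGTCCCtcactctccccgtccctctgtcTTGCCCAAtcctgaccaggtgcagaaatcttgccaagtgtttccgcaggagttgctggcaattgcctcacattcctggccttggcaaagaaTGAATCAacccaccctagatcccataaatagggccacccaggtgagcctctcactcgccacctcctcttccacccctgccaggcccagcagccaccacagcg

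S100A8, chr1:153391024-153391323, minus strand: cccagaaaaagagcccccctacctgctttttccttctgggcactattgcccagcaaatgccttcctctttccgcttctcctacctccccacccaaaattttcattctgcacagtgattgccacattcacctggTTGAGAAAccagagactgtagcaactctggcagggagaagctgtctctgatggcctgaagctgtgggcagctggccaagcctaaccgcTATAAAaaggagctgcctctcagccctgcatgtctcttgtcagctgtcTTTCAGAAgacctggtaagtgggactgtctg

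S100A9, chr1:153357604-153357903, plus strand: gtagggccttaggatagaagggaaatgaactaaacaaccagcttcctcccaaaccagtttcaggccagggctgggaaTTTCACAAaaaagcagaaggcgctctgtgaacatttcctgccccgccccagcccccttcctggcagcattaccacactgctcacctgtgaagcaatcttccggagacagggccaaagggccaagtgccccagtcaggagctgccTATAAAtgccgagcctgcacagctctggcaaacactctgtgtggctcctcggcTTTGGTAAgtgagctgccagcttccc

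WFDC2, chr20:45469503-45469802, plus strand: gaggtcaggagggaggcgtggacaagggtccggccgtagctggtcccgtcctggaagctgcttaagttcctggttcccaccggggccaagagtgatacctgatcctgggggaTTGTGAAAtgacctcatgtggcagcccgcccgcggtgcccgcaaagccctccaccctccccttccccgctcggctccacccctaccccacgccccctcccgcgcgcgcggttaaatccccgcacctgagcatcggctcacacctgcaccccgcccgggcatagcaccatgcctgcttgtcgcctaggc

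CFB, chr6:31945845-31946144, plus strand: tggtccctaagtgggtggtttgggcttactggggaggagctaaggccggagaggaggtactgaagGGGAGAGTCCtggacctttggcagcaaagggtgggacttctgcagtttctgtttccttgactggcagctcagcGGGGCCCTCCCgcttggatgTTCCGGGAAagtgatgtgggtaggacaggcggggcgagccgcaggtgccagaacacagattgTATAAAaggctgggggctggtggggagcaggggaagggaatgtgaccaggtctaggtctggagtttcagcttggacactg

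The LCN2 window held a pair of overlapping NF-kB matches, on opposite strands, between positions -176 and -166 from the start site, a C/EBP match from -143 to -136 and an AP-1 match from -52 to -46. S100A9 and the printed S100A8 window each held a TATA box at -29 to -24 and C/EBP matches, at -117 to -110 and 20 to 27 in S100A8 and at -173 to -166 and 25 to 32 in S100A9. The S100A8 start site with the lowest coordinate had its TATA box letters at -126 to -121, and that with the highest coordinate had none. WFDC2 held 1 C/EBP match, at -138 to -131. In CFB a TATA box stood at -30 to -25, a STAT match at -92 to -84 and 3 NF-kB matches between -185 and -102, of which 2 overlap. The PIGR window held none of these letters. A match describes letters and not a bound site.

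Levels are given as FPKM, which scales fragments to the length of a transcript and to the size of its library, and how many fragments lie behind each value is not known. Limma was run on log2(FPKM + 1) over genes that reached 1 FPKM in 3 or more libraries of their experiment, 11305 when untreated and 12236 when treated, and a gene was called at a Benjamini-Hochberg adjusted p under 0.05. Fold changes on this scale understate the change of genes near or below 1 FPKM. Of the 10 genes, 9 passed this filter in each experiment, and PIGR in neither. With 3 libraries a group, the smallest p of an exact permutation test (two-sided) is 0.1, so none is given below. EGFR RNA followed the labels, at 26.5 to 60.6 FPKM in untreated EGFR-low and 161 to 269 FPKM in untreated EGFR-high libraries. The same was seen after treatment, with 16.1 to 43.3 FPKM in the EGFR-low and 83.3 to 207 FPKM in the EGFR-high libraries. Of 11 myeloid markers, which bear on S100A8, S100A9 and LCN2 because neutrophils and monocytes express them strongly, 1 (CD68, also a general lysosomal gene) reached 1 FPKM in any untreated or EGFR-high treated library, and 3 to 4 did so in the treated EGFR-low groups. Their summed level was 17.2 to 46.4 FPKM over all libraries, and ELANE was at 0 in every library of 6 of the 7 groups. In bulk RNA, fewer cells that express a gene and less RNA per cell cannot be told apart.

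Some libraries stood apart. The first DMSO replicate of EGFR-low cells correlated across 11118 genes at 0.874 to 0.900 with the treated EGFR-high libraries other than DMSO replicate 3, against 0.790 to 0.817 for the other 5 treated EGFR-low libraries. The same EGFR-low replicate correlated at 0.951 to 0.958 with those 5 EGFR-low libraries. DMSO replicate 3 of EGFR-high cells correlated at 0.876 to 0.887 with those 5. It correlated at 0.971 to 0.980 with the treated EGFR-high libraries other than vorinostat replicate 1. NKX2-1, the lineage factor of lung epithelium, was at 24.1 to 51.1 FPKM in all 6 treated EGFR-low libraries, at 11.1 FPKM in DMSO replicate 3 of EGFR-high cells, and at no more than 0.588 FPKM in every other library of either experiment. The treated EGFR-low libraries also differed from the untreated ones. Without DMSO replicate 1, the other 5 correlated at 0.754 to 0.798 with untreated EGFR-low libraries. The treated EGFR-high libraries correlated at 0.809 to 0.957 with all untreated libraries, and untreated libraries at 0.881 to 0.988 among themselves. Whether the treated EGFR-low libraries, DMSO replicate 1 among them, and DMSO replicate 3 of EGFR-high cells hold the cells their labels name was not tested. Several estimates that rest on DMSO replicate 1 of EGFR-low cells or DMSO replicate 3 of EGFR-high cells are also given without them. Results in vorinostat-treated EGFR-low cells have no counterpart without the treated EGFR-low libraries. The 2 experiments were not tested against each other.

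In untreated EGFR-high cells the genes ranged from abundant to near absent, as the plot of every library shows. By median FPKM, S100A9 (709) stood highest, followed by LCN2 (359), SLPI (108), PI3 (94.6), WFDC2 (53.2), C3 (40.4), S100A8 (9.49), SAA1 (1.92) and CFB (1.20). The ranges over replicates overlapped between SLPI and PI3, between WFDC2 and C3, between C3 and S100A8, and between SAA1 and CFB, so the order within these pairs is not settled. PIGR was listed at 0 in 7 of the 9 untreated libraries and at 0.0136 and 0.0143 FPKM in the other two. Together the 10 genes made up 0.251 to 0.410% of all FPKM in untreated EGFR-high libraries, 0.155 to 0.344% in parental and 0.123 to 0.198% in EGFR-low libraries.

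**Figure D1:**
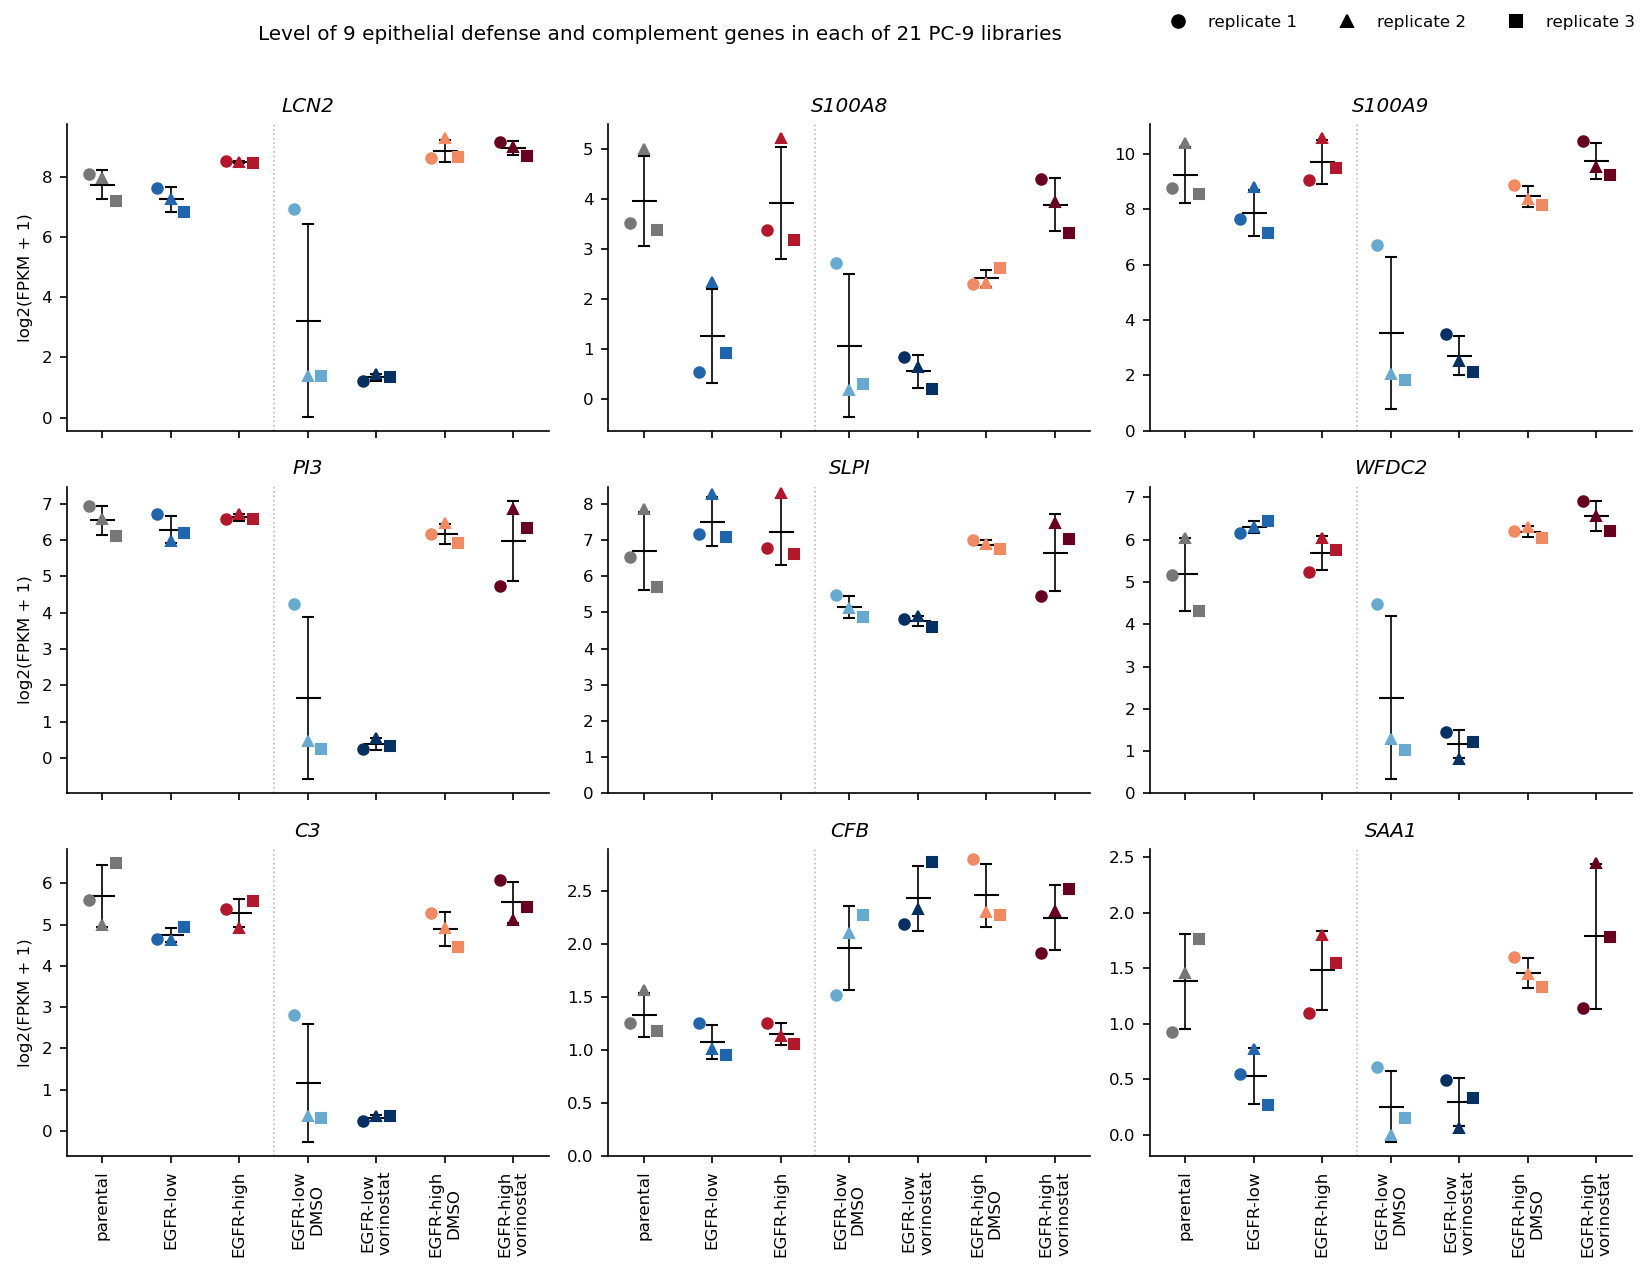
Level of 9 genes, as log2(FPKM + 1) with a scale of its own in each panel, in every library of the 7 groups (circle, triangle and square for replicates 1, 2 and 3), with the group mean and SD in black and a dotted line between the experiments. For LCN2, S100A9, PI3, WFDC2 and C3, 5 of the 6 treated EGFR-low libraries lie far below all others and DMSO replicate 1 lies above those 5 and below the treated EGFR-high libraries, save that PI3 in vorinostat replicate 1 of EGFR-high cells comes near it (25.9 against 17.7 FPKM). CFB shows no such gap.

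The calprotectin genes and LCN2 were lower in untreated EGFR-low cells than in their EGFR-high counterparts, though only S100A8 passed the test. S100A8 was at 0.449, 4.03 and 0.872 FPKM in EGFR-low replicates 1 to 3, at 9.49, 36.5 and 8.03 in EGFR-high, and at 10.5, 31.1 and 9.37 in parental cells. Every EGFR-low library lay below every library of the other two groups. The log2 fold change of EGFR-low against EGFR-high was -2.67 ± 0.63 (SE), and limma called it (adjusted p = 0.0406). The call did not survive leaving out any 1 of the 3 EGFR-high libraries or EGFR-low replicate 1 or 3 (adjusted p = 0.0570 to 0.163), but the fold change stayed between -3.21 and -2.03.

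S100A9, the partner of S100A8, was at 197, 440 and 141 FPKM in EGFR-low, 532, 1521 and 709 in EGFR-high, and 437, 1331 and 371 in parental cells. EGFR-low and EGFR-high did not overlap, but the second EGFR-low replicate exceeded parental replicates 1 and 3. LCN2 was at 198, 152 and 113 FPKM in EGFR-low cells, 364, 359 and 348 in EGFR-high and 270, 245 and 144 in parental cells. EGFR-high libraries lay close together and above all others, and EGFR-low and parental libraries overlapped. Neither gene passed limma, with a log2 fold change of EGFR-low against EGFR-high of -1.85 ± 0.58 for S100A9 (adjusted p = 0.130) and of -1.24 ± 0.31 for LCN2 (adjusted p = 0.0536).

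Replicate 2 of all 3 untreated groups held the highest S100A8, S100A9 and SLPI levels and the lowest EGFR and C3 levels of its group. Across 10718 genes with a known transcript length, the deviation of replicate 2 from the other replicates ran against length, with a Spearman's rho of -0.437 in parental, -0.221 in EGFR-low and -0.405 in EGFR-high cells, and the part of length in these levels was not tested. Libraries of EGFR-low and EGFR-high cells with the same number moved together across all genes, and within a number EGFR-low cells had 0.0473, 0.110 and 0.109 of the EGFR-high S100A8 level, 0.369, 0.290 and 0.199 of its S100A9 level and 0.545, 0.424 and 0.324 of its LCN2 level. With the replicate number as a block, limma called 4 of the 9 genes in place of 1, all lower in EGFR-low cells: S100A8 (adjusted p = 0.00038), S100A9 (0.00237), LCN2 (0.00919) and SAA1 (0.0399). That block was fitted over all 9 untreated libraries, parental ones included. Parental libraries were not taken as paired by number, since that of number 3 correlated in its deviations at -0.092 with EGFR-low and -0.0023 with EGFR-high. The median log2 fold change without the block was -0.54 over the 9 genes and -0.03 over all genes tested. Of all genes tested, 3.81% were called without the block (2.19% lower and 1.62% higher in EGFR-low cells) and 8.54% with it (4.69% lower).

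**Figure D2:**
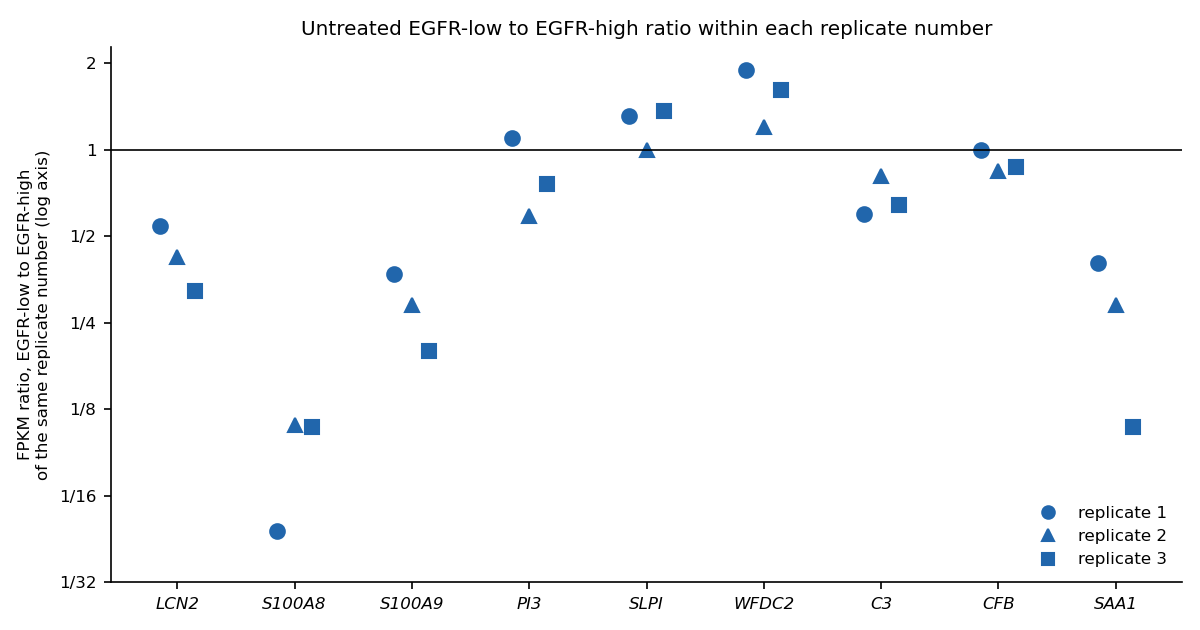
FPKM of untreated EGFR-low divided by that of the EGFR-high library with the same replicate number (log axis), for 9 genes. All 3 ratios lie below 1 for LCN2, S100A8, S100A9, SAA1, C3 and CFB and above 1 for WFDC2, and those of PI3 and SLPI lie on both sides.

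SAA1 was low everywhere, at 0.461, 0.715 and 0.209 FPKM in EGFR-low, 1.14, 2.49 and 1.92 in EGFR-high and 0.898, 1.75 and 2.39 in parental cells. EGFR-low libraries lay below all others, with a log2 fold change against EGFR-high of -0.95 ± 0.26 (limma, adjusted p = 0.0848 without the block). SAA1 shares near-identical sequence with SAA2, so that reads could be split between them, and SAA2 had a log2 fold change of -0.86 ± 0.23 (adjusted p = 0.0705).

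None of the WAP genes passed the test in untreated cells. WFDC2 was at 69.9, 78.1 and 86.2 FPKM in EGFR-low, 36.9, 65.0 and 53.2 in EGFR-high, and 34.8, 65.2 and 19.0 in parental cells. All EGFR-low libraries were above all others, but the difference did not pass limma against EGFR-high (log2 fold change 0.62 ± 0.39, adjusted p = 0.594) or against parental cells (1.12 ± 0.39, adjusted p = 0.224). PI3 was at 104, 61.9 and 71.8 FPKM in EGFR-low, 94.6, 105 and 94.4 in EGFR-high and 122, 94.8 and 68.5 in parental cells. SLPI was at 142, 310 and 134 FPKM in EGFR-low, 108, 310 and 97.7 in EGFR-high and 91.6, 230 and 50.9 in parental cells. Both overlapped in all pairs of groups. Their EGFR-low to EGFR-high difference had a 95% interval of -0.97 to 0.29 log2 units for PI3 and -1.02 to 1.57 for SLPI.

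The complement genes C3 and CFB did not pass the test in any untreated comparison. C3 was at 24.1, 23.8 and 29.8 FPKM in EGFR-low, 40.4, 29.2 and 46.3 in EGFR-high and 47.7, 31.0 and 88.7 in parental cells, so EGFR-low cells lay below parental without overlap (log2 fold change -0.95 ± 0.35, adjusted p = 0.248). CFB was between 0.936 and 1.96 FPKM in all 9 libraries, with a 95% interval of -0.48 to 0.33 log2 units between EGFR-low and EGFR-high. CFB lies next to C2 in the genome, and whether any reads were shared between them is not known.

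Between EGFR-low and parental cells 0 of the 9 genes were called by limma (1.6% of all genes were, 0.77% lower and 0.831% higher), and 5 had an unadjusted p under 0.05 (C3, S100A8, S100A9, SAA1 and WFDC2), as did 14.8% of all genes. S100A8 came nearest (-2.71 ± 0.63, adjusted p = 0.0649). Between EGFR-high and parental cells 0 were called (0.0708% of all genes were) and 1 (LCN2) had an unadjusted p under 0.05, as did 9.67% of all genes, with a log2 fold change of 0.75 ± 0.31 (adjusted p = 0.507). Counting genes whose groups did not overlap, 4 of the 9 were lower and 1 (WFDC2) higher in EGFR-low cells against EGFR-high (20.6% of all genes, 11.2% lower and 9.39% higher). Against parental cells 3 were lower and 1 higher in EGFR-low cells (17.1% of all genes, 8.02% lower and 9.07% higher). LCN2 was the 1 gene of the 9 that separated EGFR-high from parental cells (16.2% of all genes, 10.2% higher).

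After DMSO, most of these genes were far lower in EGFR-low cells. LCN2 was at 119, 1.59 and 1.59 FPKM in EGFR-low and 388, 619 and 403 in EGFR-high cells. C3 was at 6.00, 0.274 and 0.245 FPKM against 38.0, 29.2 and 20.95. PI3 was at 17.7, 0.390 and 0.172 FPKM against 71.1, 87.4 and 59.4. In all of them EGFR-low replicate 1 held far more RNA than replicates 2 and 3, which were close to absent, and still lay below every EGFR-high library.

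WFDC2 and S100A9 had this shape as well. WFDC2, which was higher in untreated EGFR-low libraries without passing the test, was at 21.3, 1.45 and 1.04 FPKM in EGFR-low and 72.7, 78.3 and 65.3 in EGFR-high cells. S100A9 was at 103, 3.17 and 2.53 FPKM against 468, 332 and 279. For LCN2, C3, S100A9, PI3 and WFDC2, EGFR-low replicate 1 held 20.4 to 29.6% of the EGFR-high DMSO mean, and the mean of replicates 2 and 3 was 0.339 to 1.73% of it. EGFR itself was at 43.3 FPKM in replicate 1 and at 17.7 and 19.3 FPKM in the others, against an EGFR-high mean of 115 ± 35 (SD, n = 3), and NKX2-1 was at 25.6 against 51.1 and 37.9 FPKM. What sets replicate 1 apart was not tested.

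**Figure D3:**
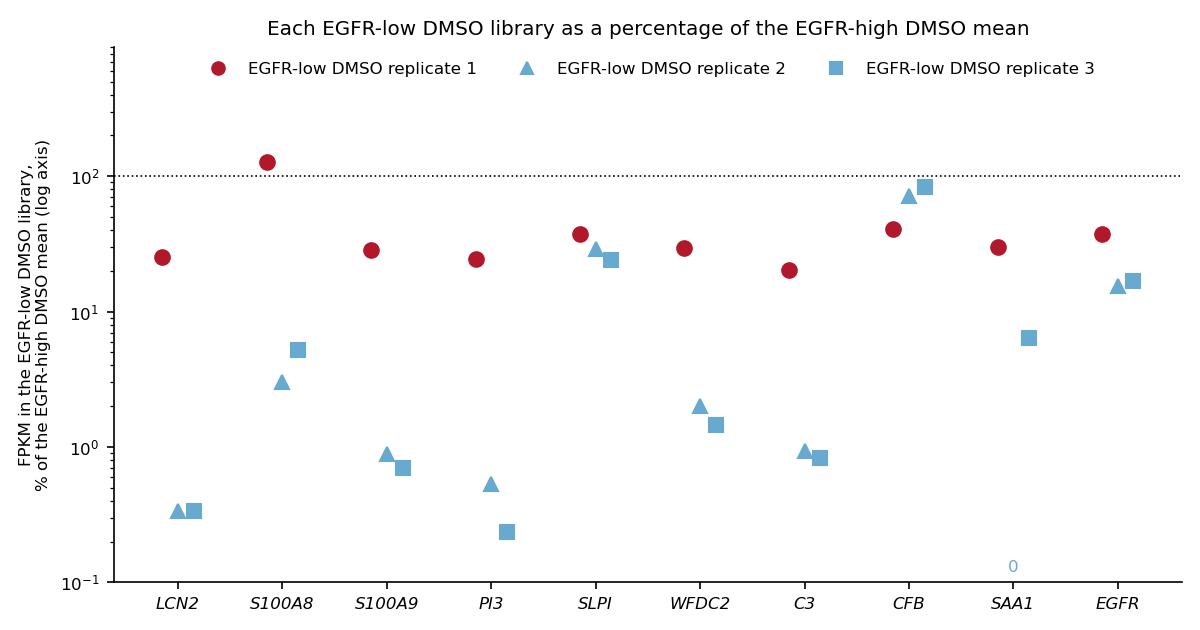
FPKM of each EGFR-low DMSO library as a percentage of the EGFR-high DMSO mean (log axis), for 9 genes and EGFR, with the dotted line at 100%. Replicate 1 (red) lies between 20.4 and 40.7% for all but S100A8 (128%), and replicates 2 and 3 (blue) lie far below it for LCN2, S100A9, PI3, WFDC2 and C3 (means of 0.339 to 1.73%). SAA1 was listed at 0 in replicate 2, which is written as 0.

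S100A8 was at 5.56, 0.133 and 0.226 FPKM in DMSO EGFR-low and 3.96, 3.96 and 5.14 in EGFR-high cells, so replicate 1 exceeded all 3 EGFR-high libraries. It was not called (limma, log2 fold change -1.35 ± 0.54, adjusted p = 0.0560), but was without replicate 1 (-2.18, adjusted p = 0.00021). SLPI was the most abundant of them in replicates 2 and 3, with 43.4, 33.7 and 28.0 FPKM in EGFR-low against 127, 117 and 106 in EGFR-high cells. SAA1 was listed at 0.531, 0 and 0.113 FPKM against 2.03, 1.73 and 1.52. CFB was at 1.86, 3.29 and 3.84 FPKM against 5.95, 3.93 and 3.85, which did not overlap and did not pass the test (-0.49 ± 0.25, adjusted p = 0.113).

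In DMSO limma called 7 of the 9 genes, all lower in EGFR-low cells, where 51.8% of all genes were called, 20.7% lower and 31.1% higher. The log2 fold changes of the called genes were -5.63 ± 1.1 for LCN2, -4.93 ± 1.00 for S100A9, -4.54 ± 0.86 for PI3, -3.92 ± 0.68 for WFDC2, -3.73 ± 0.54 for C3, -1.72 ± 0.39 for SLPI and -1.20 ± 0.28 for SAA1, with adjusted p between 0.00036 and 0.00414. Without EGFR-low replicate 1 the same fit gave -7.47 for LCN2, -6.52 for S100A9, -5.83 for PI3, -5.03 for WFDC2 and -4.55 for C3, and called 8 of the 9 genes, CFB being the other. Leaving out EGFR-high replicate 3 as well gave -7.57, -6.69, -5.97, -5.09 and -4.77 in the same order, with the same 8 called. The median over the 9 genes was -3.73 with all libraries, against 0.12 over all genes tested. All but S100A8 of the 9 were lower without overlap, as were 28.4% of all genes.

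In vorinostat all 3 EGFR-low replicates were near absent for most of these genes. LCN2 was at 1.33, 1.72 and 1.57 FPKM in EGFR-low against 564, 506 and 412 in EGFR-high cells, S100A9 at 10.3, 4.67 and 3.40 against 1399, 732 and 604, and PI3 at 0.194, 0.472 and 0.262 against 25.9, 116 and 79.5. The EGFR-high means were 321, 149 and 239 times the EGFR-low means. C3 was at 0.181, 0.287 and 0.277 FPKM against 66.4, 33.5 and 42.3, and WFDC2 at 1.76, 0.756 and 1.32 against 120, 93.9 and 72.5. The groups did not overlap for any of these 5 genes.

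S100A8, at 0.773, 0.552 and 0.138 FPKM against 20.1, 14.4 and 9.07, was now called with the others (log2 fold change -3.34 ± 0.54, adjusted p = 0.00030). SLPI was at 27.0, 28.6 and 23.4 FPKM in EGFR-low cells against 42.8, 177 and 128, and SAA1 at 0.407, 0.0471 and 0.257 against 1.21, 4.45 and 2.43. In both the first EGFR-high replicate was the lowest of its group, as it was for PI3 and CFB, and the highest for LCN2, C3, S100A8, S100A9 and WFDC2. CFB alone overlapped, at 3.56, 4.03 and 5.84 FPKM against 2.77, 3.98 and 4.72. Limma called 8 of the 9 genes, all lower in EGFR-low cells, where 59% of all genes were called, 22.8% lower and 36.2% higher. The same 8 genes were lower without overlap, as were 23.5% of all genes. The log2 fold change of the called genes ran from -7.60 ± 1.1 for LCN2 to -1.49 ± 0.28 for SAA1, and its median was -5.22 over the 9 genes and 0.16 over all genes tested. The SE is pooled over all treated groups, and that of LCN2 was 0.18 without EGFR-low DMSO replicate 1 and EGFR-high DMSO replicate 3.

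**Figure D4:**
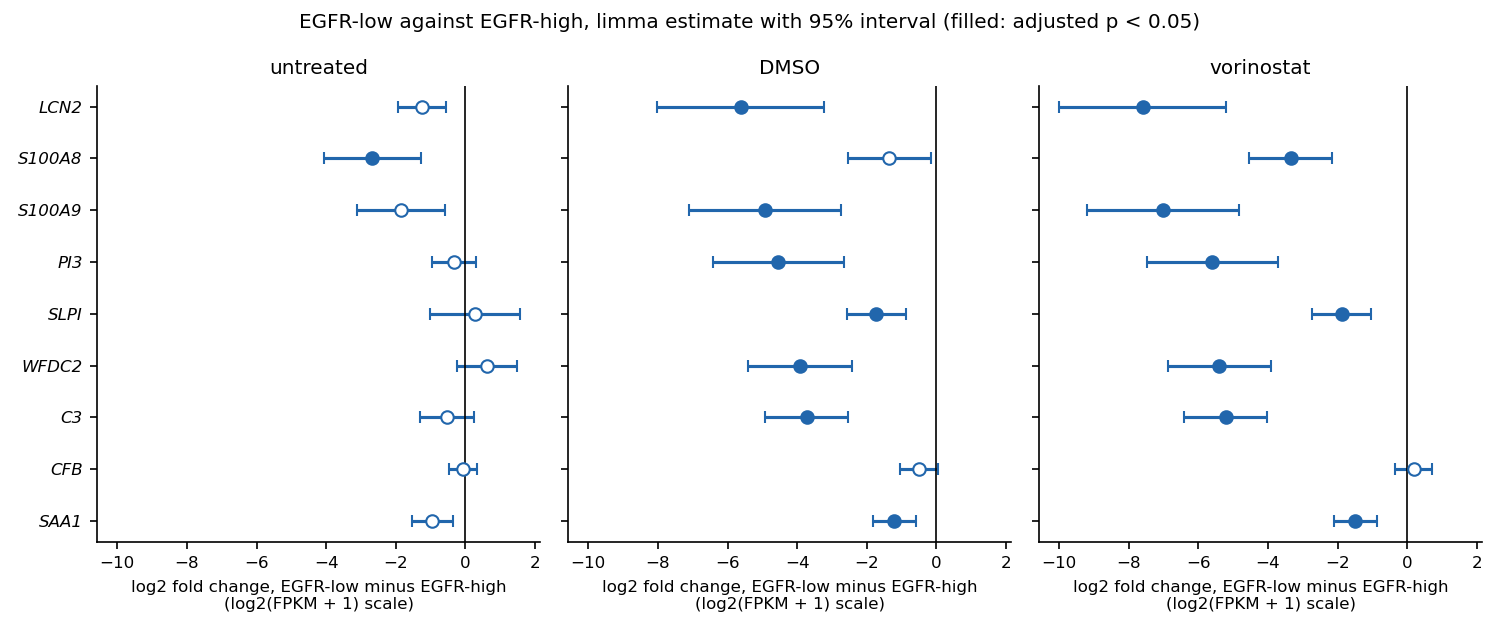
Log2 fold change of EGFR-low against EGFR-high cells with its 95% interval from limma, on the log2(FPKM + 1) scale, in untreated, DMSO-treated and vorinostat-treated cells (filled points have an adjusted p under 0.05). WFDC2 and SLPI lie above 0 in untreated cells (0.62 and 0.28, neither called) and below it in both treatments. CFB is called in no panel, with its lowest estimate in DMSO (-0.49).

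None of these genes passed the test of vorinostat against DMSO. In EGFR-low cells limma called 0 of the 9 genes and 0 of all genes (0%), and 115 of 12236 genes and 0 of the 9 had an unadjusted p under 0.05. LCN2 had a log2 fold change of -1.88 ± 1.1 against DMSO, PI3 -1.26 ± 0.86, WFDC2 -1.11 ± 0.68 and C3 -0.84 ± 0.54. Without DMSO replicate 1 these 4 estimates were -0.033 ± 0.20, 0.031 ± 0.47, 0.0013 ± 0.23 and -0.014 ± 0.28, in this order. S100A9 went from -0.82 ± 1.00 to 0.77 ± 0.41 and S100A8 from -0.51 ± 0.54 to 0.31 ± 0.29. All 9 genes overlapped between the groups, as did all but 9.46% of all genes.

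In EGFR-high cells the calprotectin genes had higher levels in vorinostat than in DMSO in every library, without passing the test. S100A8 was at 20.1, 14.4 and 9.07 FPKM against 3.96, 3.96 and 5.14, and S100A9 at 1399, 732 and 604 against 468, 332 and 279. Neither overlapped (5.33% of all genes did not, 2.25% being higher in vorinostat), and the means were 3.34 and 2.53 times those in DMSO. Neither passed limma over all genes (S100A8 1.48 ± 0.54, unadjusted p = 0.0191, adjusted p = 0.940; S100A9 1.28 ± 1.00, adjusted p = 0.940). Limma called 0 of the 9 genes and 0 of all genes (0%), while 409 genes had an unadjusted p under 0.05. The highest S100A8 and S100A9 values were those of vorinostat replicate 1, which correlated at 0.946 to 0.959 with 4 other treated EGFR-high libraries that correlated at 0.977 to 0.988 among themselves, and without it the estimates were 1.23 ± 0.61 and 0.92 ± 1.15. Without EGFR-high DMSO replicate 3 and EGFR-low DMSO replicate 1 they were 1.58 ± 0.29 and 1.11 ± 0.42 (adjusted p = 0.999 for both). The other 7 genes overlapped, with LCN2 at 0.093 ± 1.1 and SLPI at -0.22 ± 0.39. The SE is pooled over all treated groups, so the spread of LCN2 in DMSO EGFR-low cells enters it. Without the same DMSO libraries LCN2 was at -0.0016 ± 0.20. The drug effect did not differ between EGFR-low and EGFR-high cells past the test for any of the 9 genes or of all genes (0%), S100A8 having the lowest p (-1.99 ± 0.77, unadjusted p = 0.0242, adjusted p = 0.999).

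**Figure D5:**
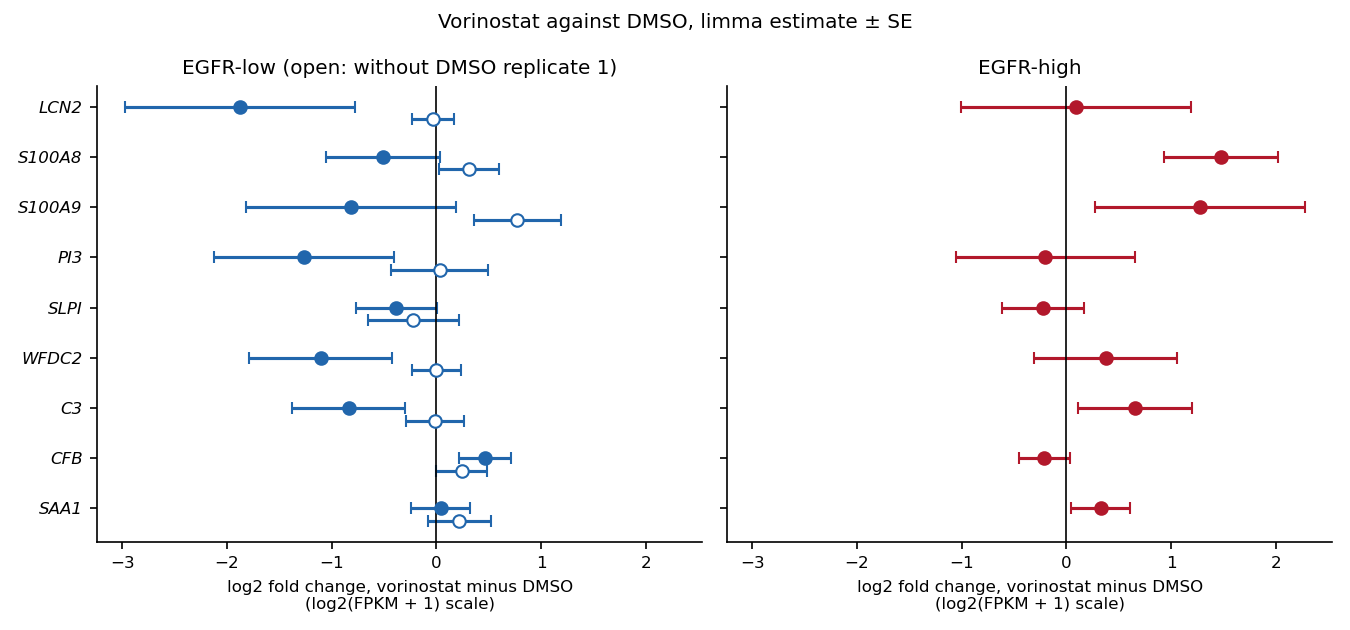
Log2 fold change of vorinostat against DMSO with its SE from limma, on the log2(FPKM + 1) scale, in EGFR-low cells (left, open points without DMSO replicate 1) and EGFR-high cells (right). Without that library the EGFR-low estimates of LCN2, PI3, WFDC2 and C3 lie close to 0 (-0.033 to 0.031), and S100A8 and S100A9 lie above 0 in EGFR-high cells without being called.

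PIGR, the receptor that would export immunoglobulin A, was listed at 0.0222 to 0.0425 FPKM in DMSO EGFR-high, 0.0110 to 0.0556 in vorinostat EGFR-high, 0.0572 to 0.0618 in DMSO EGFR-low and 0.0730 to 0.133 in vorinostat EGFR-low cells. All of these are too low to be tested.

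The genes around the 10 were counted in gene lists. For each list the shares over all genes are 31.1% called higher and 20.7% called lower in DMSO, 36.2% and 22.8% in vorinostat, and 1.62% and 2.19% in untreated EGFR-low against EGFR-high cells, and a list's count near these is no result about the list. In the WFDC gene cluster, to which PI3, SLPI and WFDC2 belong, 4 of 18 genes were tested. All 4 were called lower in EGFR-low cells both in DMSO and in vorinostat, the fourth being WFDC3 at 2.79 against 6.57 FPKM in DMSO (means; log2 fold change -1.03 ± 0.40, adjusted p = 0.0464). With the replicate block 3 were called lower in DMSO, WFDC3 not among them, and 4 in vorinostat. In untreated cells 0 of the 4 were called, and 1 higher with the replicate block. In the S100 cluster, 8 of 12 tested genes were called lower and 0 higher in DMSO, led by S100A9, S100A5 (-2.73 ± 0.31) and S100A14 (-2.68 ± 0.47), and 9 were lower and 1 higher in vorinostat. S100A8 was the 1 of 11 called in untreated cells (2 lower with the block), where S100A14 had an estimate of 1.14 ± 0.36 (adjusted p = 0.129).

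Complement genes were called in both directions in treated cells, and 1 of 7 was called in untreated cells. CFI, the protease that cleaves C3b, was at 9.28, 22.5 and 30.0 FPKM in DMSO EGFR-low cells, at 0 (listed), 0.00916 and 3.91 in DMSO EGFR-high cells and at most 0.0332 in untreated cells (log2 fold change in DMSO 3.52 ± 0.61, adjusted p = 0.00075). The EGFR-high library with 3.91 FPKM was replicate 3. C5, the component cleaved after C3, was also called higher in DMSO EGFR-low cells (1.35 ± 0.21). In all, 7 of 13 tested complement genes were called higher and 2 lower (C3 and CD59) in DMSO, where 31.1% and 20.7% of all genes were, and 7 and 2 in vorinostat. The 1 called in untreated cells was CD55, which speeds the decay of C3 convertases, at 42.0, 39.2 and 28.5 FPKM in EGFR-low and 15.5, 15.4 and 9.71 in EGFR-high cells (1.38 ± 0.26, adjusted p = 0.0123).

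Among antiproteases, which include the WAP genes, 2 of 15 were called higher and 2 lower in untreated EGFR-low cells against EGFR-high. SERPINB3, an inhibitor of cysteine proteases, was at 12.02, 24.5 and 11.995 FPKM in EGFR-low, 0.419, 0.357 and 0.229 in EGFR-high and 1.96, 1.75 and 1.84 in parental cells (3.61 ± 0.27 against EGFR-high, adjusted p = 2.79e-05). Its near-identical neighbour SERPINB4 was called with it (1.73 ± 0.19), and CST6, a cystatin, was called lower (-2.03 ± 0.46). SERPINB3 and SERPINB4 were also the 2 antiproteases called against parental cells. In DMSO, where 31.1% of all genes were called higher and 20.7% lower, 6 of 18 were called higher, among them SERPINA1, the main plasma elastase inhibitor (4.37 ± 1.01), and 8 lower, among them PI3 and SERPINE2 (-4.12 ± 0.75).

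Of 8 acute phase genes tested in treated cells, 3 were called higher and 4 lower in EGFR-low cells in DMSO, led by LCN2, SERPINA1 and C3, with the same counts in vorinostat. In untreated cells 0 of 5 were called, and 3 lower with the replicate block. Of 9 tested airway defense genes, 6 were called lower in DMSO and 7 in vorinostat, and 5 and 6 of these are among the 10. In untreated cells 1 of the 9 was called lower (S100A8), and 3 lower and 1 higher with the block. Of the receptors through which the 10 proteins act, 6 were tested in treated cells, and TLR4, which recognizes calprotectin (-2.12 ± 0.29), CR2, which binds C3 fragments (-1.03 ± 0.28), and SCARB1, a receptor of serum amyloid A (-0.71 ± 0.14), were called lower and 1 higher in DMSO. CR2 was also the 1 of 7 called in untreated EGFR-low against parental cells (-0.93 ± 0.18, adjusted p = 0.0261).

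Regulators of the NF-kB, IL-6, IL-1 and IL-17 pathways were called in both directions. In untreated cells 2 of 36 were called, both higher in EGFR-low cells, and with the replicate block 5 higher and 3 lower. IL1B was at 3.59, 1.90 and 3.23 FPKM against 0.412, 0.784 and 0.302 in EGFR-high cells (1.37 ± 0.24, adjusted p = 0.00844), and IL1RN, the receptor antagonist that blocks it, had a log2 fold change of 1.08 ± 0.21 (adjusted p = 0.0162). In DMSO 13 of 37 were called higher and 10 lower, shares near those of all genes (31.1% and 20.7%). EHF, an epithelial ETS factor, was at 15.9, 0.956 and 1.09 FPKM in EGFR-low against 59.6, 73.0 and 53.4 in EGFR-high cells (-3.93 ± 0.62), and so had the shape of LCN2 and C3, with EGFR-low replicate 1 in between. In untreated EGFR-low cells EHF was at 61.2 to 82.5 FPKM and in EGFR-high cells at 63.1 to 91.9 FPKM. LIFR, a receptor of the IL-6 family, was called higher (1.94 ± 0.47) and SPDEF, another ETS factor, lower (-1.87 ± 0.49). In vorinostat 15 were called higher and 12 lower, led by EHF, TNFAIP3 (-2.14 ± 0.57) and NFKBIZ (1.93 ± 0.41).

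Of 9 lung and epithelial markers, 8 were tested in treated cells, and NKX2-1 was called higher and KRT8 and KRT19 lower in EGFR-low cells in DMSO (3 higher and 3 lower in all). The keratins remained abundant, at means of 279 and 278 FPKM in DMSO EGFR-low cells. CSF1R and CD14 were the 2 of 3 tested myeloid markers called, both higher in treated EGFR-low cells, at means of 1.71 and 1.21 FPKM in DMSO. In untreated EGFR-low against EGFR-high cells 0 of 6 lung and epithelial markers were called (1 lower with the replicate block), and 0 of 1 myeloid marker. Vorinostat against DMSO called no gene of any list in either line.

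The medians of the lists summarise these counts. In DMSO the median log2 fold change of EGFR-low against EGFR-high was -2.82 for the WFDC cluster, -1.72 for airway defense, -1.07 for the S100 cluster, -0.63 for acute phase genes and for the receptors, -0.35 for antiproteases, 0.06 for lung and epithelial markers, 0.32 for the NF-kB and interleukin regulators, 0.53 for complement and 0.82 for myeloid markers, against 0.12 over all genes. Only 1 of the 4 WFDC genes tested, 3 of 9 airway defense genes and 4 of 8 acute phase genes lie outside the 10. The medians of these lists thus in large part restate the 10. Untreated, the list medians lay between -0.86 for acute phase genes, where 4 of the 5 tested are among the 10, and 0.45 for the WFDC cluster, against -0.03 over all genes.

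The genes whose pattern was most like each of the 9 were found over all 21 libraries, as Pearson's r of log2(FPKM + 1) centred within each experiment, among 11118 genes tested in both. These values are descriptive, since the libraries share the treated EGFR-low gap and its intermediate replicate. For LCN2 they were NGFRAP1, TIMP3 and MAL (r = 0.992, 0.991 and 0.990), and for PI3 they were GNG4, NGFRAP1 and MAL (0.995, 0.990 and 0.989). C3 was most like KLK7, SLAIN1 and EHF (0.985, 0.984 and 0.983), and WFDC2 was most like KLK5, ADIRF and ALOX5 (0.988, 0.987 and 0.985). For S100A9 the values were 0.975 for FSTL5, 0.973 for MAGEA12 and 0.969 for TSPAN2, and for S100A8 they were 0.929 for PARD6B, 0.914 for CCK and 0.909 for HBE1. SLPI was most like SSPN, PDCD6 and AKR1C4 (0.956, 0.946 and 0.939) and SAA1 most like MAPK10, SAA2 and LYPD6B (0.950, 0.949 and 0.914). CFB had no close match, its highest being 0.630 with MT-ATP8, 0.630 with MT-ATP6 and 0.606 with MT-CO3.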

How the data were processed

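RNA-seq of PC-9 cells was analysed from the authors' processed values, and no reads were used. The deposited values were read as FPKM that the authors made with Cufflinks, since their sums per library (467897 to 592942) are those of a normalized quantity, although the naming calls them gene counts. The submitters' processing notes name STAR 2.5.1b, Cufflinks 2.2.1, DESeq2 1.10.1 and hg19, without saying how each was used. Depth is unknown, so a 0 is described as listed at 0. The number of columns of per-sample values left unused was 0.

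Limma 3.58.1 (R 4.3.3) was run on log2(FPKM + 1) for each experiment on its own, with the trend option of eBayes, 1 mean per group and no replicate block. Genes had to reach 1 FPKM in 3 or more libraries. P-values were adjusted by Benjamini-Hochberg over all genes tested. The fits were tested on simulated data. In the untreated EGFR-low to EGFR-high comparison (11305 genes) they found 81% of genes changed by 2 log2 units and 20% of those changed by 1. In the DMSO comparison (12236 genes) they found 96 and 70%. Changes were put only into genes of higher mean level, which leaves out SAA1 and CFB. Noise was drawn independently for each library and all other genes were left unchanged, so these rates need not hold for the real data. Replicates are independent experiments per the study's methods. To check the pairing, each library's deviation from its group mean was correlated with that of the library of the same number. The untreated EGFR-low and EGFR-high pairs gave 0.343, 0.730 and 0.689, the same pairs in vorinostat 0.353, 0.351 and 0.163, and the EGFR-low pairs of vorinostat and DMSO 0.267, 0.302 and 0.329. Numbers were taken as pairing libraries in these 3 comparisons, and elsewhere at least 1 pair was under 0.1. The replicate block was fitted over all libraries of an experiment, also those not taken as paired. Promoter windows and gene lengths came from RefSeq (GRCh38.p14) and GENCODE v29 on GRCh38, and no position was moved between builds. The 10 genes and the gene lists were chosen with earlier results of these data known. From each list, up to 3 called genes with the largest log2 fold change per comparison were named. S100A14 in untreated cells, SAA2, CD59, TNFAIP3 and the values of list genes in comparisons where they were not called were named after their values were seen. Alternatives were pseudocounts of 0.1 and 5, no filter, a filter of 5 FPKM, median-of-ratios and quantile scaling, only the compared groups, the replicate block, no trend, and each library left out. The joint removal of EGFR-low DMSO replicate 1 and EGFR-high DMSO replicate 3 was added after seeing the data.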

Additional observations from a re-analysis of the deposited data

Results flagged for a closer look

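WFDC2 was flagged because EGFR-low and EGFR-high cells separated in opposite directions in the 2 experiments. Untreated, all 3 EGFR-low libraries (69.9 to 86.2 FPKM) lay above all 3 EGFR-high libraries (36.9 to 65.0 FPKM), with a log2 fold change of 0.62 that limma did not call (adjusted p = 0.594). In DMSO, all 3 EGFR-low libraries (1.04 to 21.3 FPKM) lay below all 3 EGFR-high libraries (65.3 to 78.3 FPKM), with a log2 fold change of -3.92 (adjusted p = 0.00076). The treated EGFR-low libraries stand apart from the untreated ones. For 5 of them the correlations with untreated EGFR-low libraries were 0.754 to 0.798, against 0.809 to 0.957 between treated EGFR-high and untreated libraries. NKX2-1 was at 24.1 to 51.1 FPKM in all 6 treated EGFR-low libraries, and whether these libraries hold the cells their labels name was not tested. The difference between the experiments was not tested, since they were normalized and fitted separately.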

How the results depend on the processing

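Under the alternatives other than leaving out 1 library, the joint removal of EGFR-low DMSO replicate 1 and EGFR-high DMSO replicate 3 included, 640 of 668 fold changes of the 9 genes kept their direction and their side of the threshold, as did 453 of 486 with 1 library left out. In the untreated EGFR-low to EGFR-high comparison the number of genes called moved from 1 to 0 with a pseudocount of 5, with no filter and with a filter of 5 FPKM, to 2 with only the compared groups and with no trend, to 3 with quantile normalization and to 4 with the replicate block, and was 0 to 1 with 1 library left out. Against parental cells it moved from 0 to 1 with only the compared groups and to 2 (S100A8 and S100A9) with the replicate block, where the numbers were not taken as pairing, and was 0 to 1 with 1 library left out. All genes called went from 431 to between 206 and 965 and from 181 to between 82 and 525 in these comparisons under the alternatives with all libraries. The causes were not tested. The calls in DMSO (6 to 8 genes) and in vorinostat (7 to 9) moved less. CFB was called under none of these alternatives in vorinostat (limma, lowest adjusted p = 0.495). The count of 9 therefore includes PIGR, tested only without a filter, at 0.0730 to 0.133 FPKM in EGFR-low and 0.0110 to 0.0556 in EGFR-high cells. In treated cells the replicate block changed no other call of the 9 genes than that of S100A8 in DMSO (adjusted p = 0.0323), where the numbers were not taken as pairing (-0.207 for number 2).

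Some uncalled estimates changed sign. CFB was at 0.0036 in the untreated EGFR-low to EGFR-high comparison with quantile normalization, and between EGFR-high and parental cells PI3 was at -0.028 with median-of-ratios scaling and SAA1 at -0.10 with quantile normalization. Without EGFR-low DMSO replicate 1 and EGFR-high DMSO replicate 3, the vorinostat estimates in EGFR-low cells were 0.31 for S100A8, 0.77 for S100A9, 0.031 for PI3 and 0.0013 for WFDC2, LCN2 in EGFR-high cells was at -0.0016, and the difference of effects was 0.070 for SLPI and 0.36 for PI3.

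With 1 library left out, the following ranges spanned 0. SLPI ran from -0.11 to 0.80 for EGFR-low against EGFR-high in untreated cells. Between EGFR-high and parental cells PI3 ran from -0.13 to 0.28, S100A8 from -0.69 to 0.48 and SAA1 from -0.13 to 0.29. For vorinostat in EGFR-low cells PI3 ran from -1.97 to 0.031, S100A8 from -0.96 to 0.31, S100A9 from -1.67 to 0.77, SAA1 from -0.088 to 0.22 and WFDC2 from -1.72 to 0.0013. In EGFR-high cells LCN2 ran from -0.027 to 0.31, PI3 from -0.64 to 0.42 and SLPI from -0.64 to 0.37. The difference of effects ran from -1.77 to 0.23 for PI3, -0.61 to 0.040 for SAA1 and -0.75 to 0.26 for SLPI. Depth is unknown, so how firmly levels near or under 1 FPKM (SAA1, CFB, PIGR) are measured cannot be stated.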
